A study of Drosophila melanogaster with 34 samples.

Results

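The sites described here are 11 guided 2′-O-methylation sites in the middle of Drosophila melanogaster 28S rRNA, taken from 72 rRNA sites measured in all. They are the sites whose annotation names 28S rRNA, lists at least 1 guide RNA gene and carries a position from 2001 to 3000. Gm2243 and Cm2744, which fall in the same range, were left out by the same rule. The members are, in order of position, Am2183, Um2204, Am2598, Am2634, Am2659, Gm2666, Um[Psi]2692, Am2704, Cm2716, Am2724 and Gm2774. The letter before m is the methylated base, and Psi in Um[Psi]2692 is the usual symbol for pseudouridine. The rule names positions and guides, not scores, but it was set with earlier results of these data known. Why Gm2243 and Cm2744 were left out is not given, and they were not removed from the other guided sites used for comparison.

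RiboMeth-seq libraries were made from a cultured fly cell line, S2R+, and from female fly heads, 34 libraries in 9 groups. In the cells, double-stranded RNA against Fibrillarin (Fib, 4 libraries) was compared with double-stranded RNA against the bacterial gene lacZ (LacZ, 4 libraries). The labels give mesenchymal stem cells as the cell type of the S2R+ samples. Heads came from flies on 5% sucrose with paraquat, labelled as 2.5 nM, for 8 days (paraquat, 3 libraries) or on 5% sucrose alone for 8 days (sucrose, 3 libraries). Heads on low-nutrient food, with 0.25x sugar and no amino acids, for 10 days (4 libraries) were set against heads on home-made 1x food for 10 days (4 libraries). Heads of flies kept at 18, 25 or 29 °C for 8 days in darkness made up the rest, with 4 libraries at each temperature. The sources used here state neither strain nor age. Titles of the paraquat and sucrose libraries carry the tag d17, which is not explained and which the other titles lack. The tables hold rRNA positions only, so neither the cell type, the tissue nor the level of Fib RNA could be set against a measured marker.

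In eukaryotes most rRNA 2′-O-methyl groups are added by box C/D small nucleolar ribonucleoproteins. Each carries a guide RNA that pairs with the target, and the base to be methylated lies at a fixed distance from a short box motif of the guide. Fibrillarin is the methyltransferase of these particles and works together with the scaffold proteins Nop56 and Nop58. In RiboMeth-seq, RNA is cut by alkali, and a 2′-O-methyl group shields the neighbouring bond, so that few reads start or end there. The methylation score used here is the authors' level score, at 1 where protection is complete and lower where ends appear, but it is not a calibrated fraction of methylated molecules.

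The 11 members had A as the methylated base at 6 sites, U at 2, G at 2 and C at 1. Of the 11, 9 lay between Am2598 and Gm2774, a stretch of 176 positions, while Am2183 and Um2204 lay 21 positions apart and 394 positions upstream of the rest. Gm2666 followed Am2659 by 7 positions, and Am2724 followed Cm2716 by 8. Cm2716, Am2724 and Gm2774 carry the numbers 2715, 2723 and 2773 in a second name. A single guide gene was listed for Am2183, Am2598 and Um[Psi]2692. Um2204, Am2634 and Gm2666 had 2, Am2659, Am2704 and Gm2774 had 3, and Cm2716 and Am2724 had 4. Some of these guides serve several sites: Cm2716 and Am2724 shared 3 of their 4, Am2634 shared 1 with 18S Um1357 and Gm2774 shared 1 with 18S Gm393. Of the 23 guide identifiers, 0 were named by the gene table at hand, so guides are given as counts. Positions are those of the site names on the 28S rRNA, and no genome coordinates or flanking sequence were used here.

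Coverage, the reads over a site, lay between 4758 and 288811 at the members, with Gm2666 lowest (4758 to 19198) and Um2204 highest (74501 to 288811). The median over the 72 sites lay between 28370.5 and 104242 reads per library. Read ends of replicates were compared in 48 pairs by chi-square over the sites, and every pair differed by more than counting error (lowest ratio of chi-square to its degrees of freedom 2.10). The labels do not say that replicates came from separate cultures or flies, so p-values measure the spread between these libraries. By the library numbers given with the tables, cell replicates 1 and 2 form a set called A here and replicates 3 and 4 a set called B. The paraquat experiment forms a set C, and the temperature and nutrition experiments form a set D. Low-nutrient replicate 4 stood apart from the rest of its group, and results that rest on it are given with and without it. Its chi-square ratios to the rest of its group were 25.5 to 36.4. It was not alone in this: they were 36.4 to 44.8 for 18 °C replicate 3 and 25.6 to 32.5 for LacZ replicate 3.

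The knockdown asks which sites lose methylation when Fibrillarin is reduced. All 11 members had a lower score in Fib than in LacZ cells at an adjusted p under 0.05 (limma across all 72 sites, Benjamini-Hochberg), where 80.6% of all sites were called lower. The members were nevertheless far from alike. Gm2774 and Am2183 lost the most, Am2598 followed, and the remaining 8 members had differences from -0.135 to -0.0549. The median difference over the 11 was -0.102, against -0.143 over all 72 sites, -0.163 over the 28 other guided 28S sites (27 of 28 lower) and -0.00217 over the 11 sites of unknown guide (1 of 11 lower). The ranges of the Fib and LacZ libraries did not overlap at any of the 11 members, as at 79.2% of all sites.

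Gm2774, whose 3 listed guides include the one shared with 18S Gm393, scored 0.561, 0.572, 0.477 and 0.473 in Fib cells, against 0.950, 0.942, 0.945 and 0.949 in LacZ cells. Every Fib library was far below every LacZ library, and Fib replicates 3 and 4 were the lowest. The difference was -0.426 (95% interval -0.485 to -0.368; limma, adjusted p = 2.45e-05), the third largest of the 72 sites. Am2183, a site with a single guide, scored 0.664, 0.669, 0.549 and 0.542 in Fib cells, against 0.950, 0.953, 0.945 and 0.966 in LacZ cells. Here too Fib replicates 3 and 4 were lowest and the groups were wide apart, with a difference of -0.348 (-0.424 to -0.272; limma, adjusted p = 7.65e-05). At Am2598, also with a single guide, the scores were 0.807, 0.776, 0.714 and 0.724 in Fib cells, against 0.979, 0.979, 0.975 and 0.982 in LacZ cells. That difference was -0.224 (-0.273 to -0.175; limma, adjusted p = 7.65e-05), and it ranked 22 among the 72.

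Am2659, with 3 guides, scored 0.891, 0.893, 0.795 and 0.822 in Fib cells and 0.995, 0.990, 0.984 and 0.971 in LacZ cells. Its neighbour Gm2666, with 2 guides, scored 0.872, 0.863, 0.856 and 0.832 in Fib cells and 0.968, 0.972, 0.911 and 0.979 in LacZ cells. LacZ replicate 3 was the low library at Gm2666, yet it still lay above all 4 Fib libraries. Differences at the neighbours were -0.135 (-0.190 to -0.0792; limma, adjusted p = 0.00111) and -0.102 (-0.143 to -0.0612; adjusted p = 0.000987). Both sites had the lowest coverage among members in LacZ cells, 7899 to 11835 reads at Am2659 and 5799 to 8345 at Gm2666.

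Cm2716 and Am2724, which share 3 guides, did not start or end at the same level. Cm2716 scored 0.898, 0.894, 0.886 and 0.890 in Fib cells, against 0.942, 0.950, 0.945 and 0.951 in LacZ cells. Am2724 scored 0.814, 0.798, 0.791 and 0.796 in Fib cells, against 0.894, 0.893, 0.923 and 0.938 in LacZ cells. At both sites the 4 Fib libraries were tightly grouped, and at Am2724 LacZ replicates 3 and 4 were the high ones. The difference was -0.0549 at Cm2716 (-0.0714 to -0.0384; limma, adjusted p = 0.000253), the smallest of the 11, and -0.112 at Am2724 (-0.142 to -0.0825; adjusted p = 0.000165). A test between the differences of these sites was not made.

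The least affected members otherwise were Am2634, Um2204, Um[Psi]2692 and Am2704. Am2634, which shares a guide with 18S Um1357, scored 0.907, 0.917, 0.894 and 0.900 in Fib cells, against 0.989, 0.987, 0.978 and 0.987 in LacZ cells, a difference of -0.0808 (-0.0996 to -0.0620). Um2204, with 2 guides, scored 0.923, 0.914, 0.899 and 0.908 in Fib cells, against 0.986, 0.990, 0.973 and 0.989 in LacZ cells, a difference of -0.0737 (-0.0937 to -0.0537). These sites kept scores near 0.9 in every Fib library, and LacZ replicate 3 was the lowest control at both. Um[Psi]2692 scored 0.887, 0.911, 0.893 and 0.904 in Fib cells, against 0.956, 0.961, 0.966 and 0.972 in LacZ cells, a difference of -0.0650 (-0.0850 to -0.0450). Am2704, with 3 guides, scored 0.941, 0.932, 0.904 and 0.888 in Fib cells, against 0.991, 0.980, 0.969 and 0.982 in LacZ cells, a difference of -0.0642 (-0.0953 to -0.0330). At Am2704 the Fib libraries spread more than at the other sites of this group of 4, with replicates 3 and 4 again lowest. Adjusted p lay between 8.88e-05 at Am2634 and 0.00237 at Am2704 (limma).

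**Figure D1:**
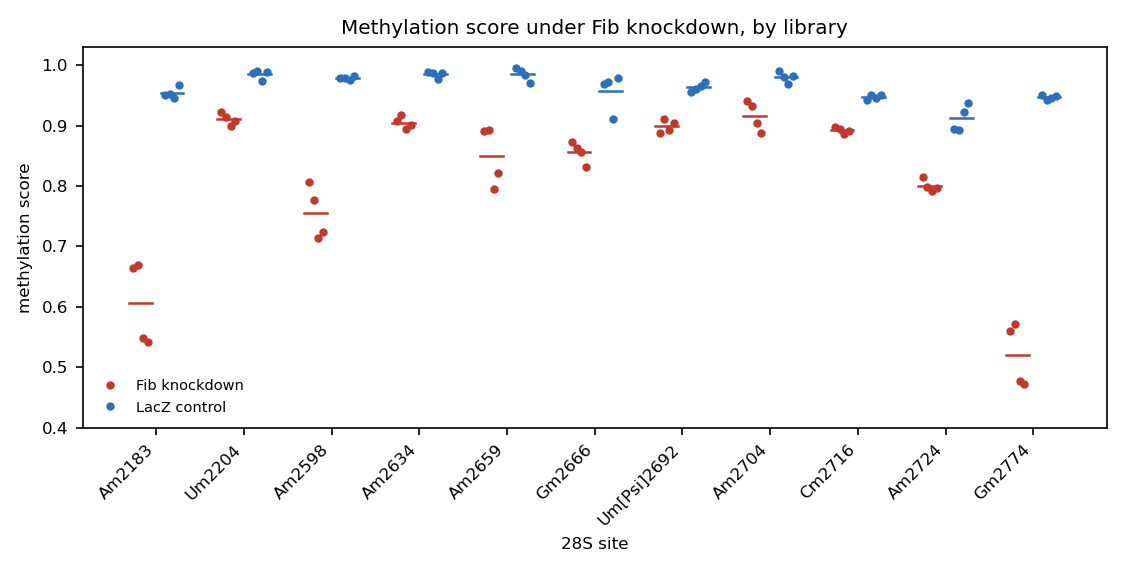
Methylation score (y axis) at the 11 sites in order of position, with each Fib library in red left of each LacZ library in blue and a bar at the group mean. The Fib libraries lie below the LacZ libraries at every site, from 0.520 against 0.947 on average at Gm2774 to 0.892 against 0.947 at Cm2716.

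Ordered by mean score in Fib cells, the members were read as 3 blocks, cut where sites adjacent in the order did not overlap. The upper and middle blocks were not fully apart. Am2659 of the middle block ranged from 0.795 to 0.893 and overlapped Cm2716 of the upper block, at 0.886 to 0.898. The upper block held Am2704, Um2204, Am2634, Um[Psi]2692 and Cm2716, from 0.916 ± 0.0244 to 0.892 ± 0.00533 (SD, n = 4). The middle block held Gm2666, Am2659, Am2724 and Am2598, from 0.856 ± 0.0173 to 0.755 ± 0.0440. Am2183, at 0.606 ± 0.0699, and Gm2774, at 0.520 ± 0.0531, formed the lower block. In LacZ cells the order was another one. Am2634, Am2659, Um2204, Am2704 and Am2598 were highest, from 0.985 ± 0.00497 to 0.979 ± 0.00283. Um[Psi]2692, Gm2666, Am2183, Cm2716 and Gm2774 came next, from 0.963 ± 0.00693 to 0.947 ± 0.00395, and Am2724 was lowest at 0.912 ± 0.0221. Am2598 thus stood in the upper block of the control cells and at the foot of the middle block after knockdown.

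The loss was larger in set B than in set A at 10 of 11 members. The same count was not made over the other sites, so it is not a result particular to the members. Set A gave -0.380 and set B gave -0.473 at Gm2774, and at Am2183 set A gave -0.285 and set B -0.410. The ratio of set B to set A lay between 0.984 at Gm2666 and 1.69 at Am2659. All 11 members passed the test within each set (limma, 2 Fib and 2 LacZ libraries per set). The share of all sites that passed within a set is not reported here. With the sets joined, 80.6% of all sites passed. Gm2774, Am2183 and Am2598 took ranks 1 to 3 among members in both sets. What differed between the sets was not tested. With the replicate number as a block, all 11 calls were kept as well.

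A score can also be read against the general loss in the same libraries. Centring each library on the median of its 72 sites, which moved by -0.145 between LacZ and Fib cells, left Gm2774, Am2183 and Am2598 lower and gave the other 8 members positive differences, from 0.0103 at Am2659 to 0.0901 at Cm2716, of which 5 passed. Centred instead on the sites of unknown guide, whose median moved by -0.0132, all 11 differences stayed negative and 10 passed, with Am2704 at -0.0510 (limma, adjusted p = 0.0741). How many of all sites passed under this centring is not reported here.

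The read ends behind the scores gave the same direction at all 11 members. How many of all sites passed when fitted by read ends is not reported here. Ends per 1000 reads of coverage were higher in Fib cells by log2 folds from 1.02 at Cm2716 to 3.44 at Am2598 (limma on log2 of ends per 1000 reads of coverage, with 1 added to the number of ends, each adjusted p under 0.05). Gm2774 had the most ends, 78.3 ± 10.1 per 1000 in Fib cells and 9.28 ± 1.54 in LacZ cells (SD, n = 4 each). Am2598 and Am2183 followed, with 31.3 ± 6.43 and 26.9 ± 5.87 in Fib cells against 2.89 ± 0.787 and 3.21 ± 0.778 in LacZ cells. In relative terms Am2659 stood beside these sites, at 11.7 ± 3.28 per 1000 in Fib cells and 1.14 ± 0.778 in LacZ cells, a log2 fold of 3.40. Its loss of score was less than that of Am2598, so the order of the sites depended on the measure.

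The sites differed in which end carried the cleavage signal. At Am2183 the ends were mostly 5′ ends, 1329, 1503, 3456 and 4107 in Fib cells against 183, 222, 464 and 269 in LacZ cells. Its 3′ ends numbered 79, 108, 171 and 201 in Fib cells and 25, 30, 20 and 27 in LacZ cells. Of all its ends, 94.6% ± 0.958 were 5′ ends in Fib cells and 90.7% ± 3.69 in LacZ cells (SD, n = 4 each). Am2598 was the opposite case, with few 5′ and many 3′ ends. It had 924, 1093, 2136 and 2302 3′ ends in Fib cells, against 88, 114, 209 and 150 in LacZ cells. The 5′ ends there numbered 85, 145, 204 and 255 in Fib cells, against 7, 15, 6 and 2 in LacZ cells. Gm2774 lay between them, with 955, 1100, 2234 and 2517 5′ ends and 793, 1161, 2385 and 2822 3′ ends in Fib cells. In LacZ cells it had 68, 95, 93 and 159 5′ ends and 158, 233, 373 and 289 3′ ends.

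Um[Psi]2692 carried nearly only 3′ ends, 334, 283, 474 and 492 in Fib cells against 106, 133, 160 and 134 in LacZ cells. Its 5′ ends numbered 7, 10, 14 and 18 in Fib cells and 4, 4, 1 and 0 in LacZ cells. Am2704 was alike, with 9.05% ± 0.977 of its ends being 5′ ends in Fib cells and 4.32% ± 3.81 in LacZ cells. Am2724 stood with Am2183, at 77.2% ± 2.48 in Fib cells and 75.4% ± 3.89 in LacZ cells. Its guide-sharing neighbour Cm2716 had 30.1% ± 3.86 in Fib cells and 19.7% ± 8.78 in LacZ cells. Among the members, the makeup itself differed, without overlap of libraries, at Um2204, Gm2774 and Am2634. Overlap in makeup is not reported here for the other sites, so it is no trait shown to be particular to the members. The share of 5′ ends varied widely between LacZ libraries, from 11.5 to 51.5% at Um2204 and from 3.33 to 43.1% at Am2634. At Um2204 57.3% ± 0.385 were 5′ ends in Fib cells and 22.7% ± 19.3 in LacZ cells. Gm2774 had 49.7% ± 3.35 in Fib cells and 28.6% ± 6.44 in LacZ cells. At Am2634 there were 77.3% ± 4.06 5′ ends in Fib cells and 18.5% ± 17.5 in LacZ cells. Its 5′ ends numbered 142, 144, 248 and 274 in Fib cells, against 2, 1, 25 and 8 in LacZ cells, while its 3′ ends numbered 30, 42, 93 and 85 in Fib cells against 19, 29, 33 and 36.

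The ratio of Fib to LacZ means was larger for 5′ than for 3′ ends per 1000 reads at 11 of 11 members, at 41 of 48 other guided sites and at 58 of 72 sites in all. For 5′ ends it ran from 2.30 at Am2724 to 25.0 at Am2634, and for 3′ ends from 1.79 at Cm2716 to 10.3 at Am2598. The groups did not overlap in 5′ ends per 1000 reads at any of the 11 sites. In 3′ ends they overlapped at Gm2666 alone, where LacZ replicate 3 had 94 3′ ends and the other LacZ libraries 19 to 29. Overlap in read ends was not counted over the other sites, so it is no trait shown to be particular to the members. Many of the control counts are below 10, so their ratios carry a wide counting error, and reads without molecular identifiers are not independent molecules.

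**Figure D2:**
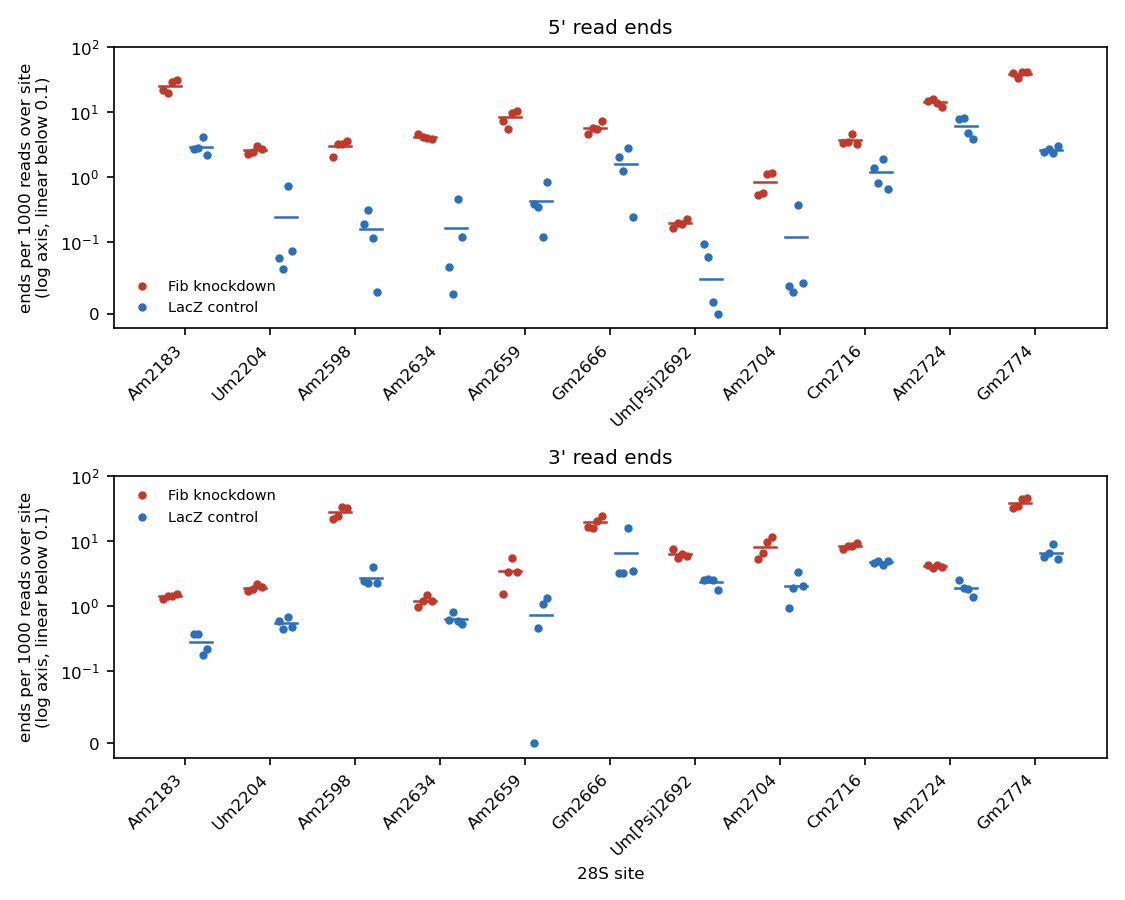
5′ read ends (upper panel) and 3′ read ends (lower panel) per 1000 reads over the site, on an axis that is logarithmic above 0.1 and linear below, with Fib libraries in red left of LacZ libraries in blue and bars at the means. Am2183 and Am2724 carry mainly 5′ ends, Am2598, Um[Psi]2692 and Am2704 mainly 3′ ends, and the groups overlap only in the 3′ ends of Gm2666.

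By the mean scores of the 9 groups, the members most like Gm2774 were Am2183, Am2598 and Am2659. These correlations, given as a description, were mostly set by the single Fib group. Without it, over 8 groups, the order changed: r with Gm2774 was 0.990 for Am2183, 0.982 for Am2724 and 0.962 for Gm2666. Am2659, at 0.789, and Am2598, at 0.778, were then no longer among the 3 members most like it. The groups share library sets, and over those 8 groups LacZ cells were the lowest at both Gm2774 and Am2183.

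LacZ cells were next set against the 3 head control groups (sucrose, 25 °C and 1x food, 11 libraries), to see whether the control cells start from the level found in tissue. At 7 of 11 members the score was lower in LacZ cells (limma, adjusted p under 0.05), where 68.1% of all sites were called lower and 72.2% were called in either direction. At 3 members, Am2183, Am2724 and Gm2774, the LacZ libraries did not overlap the head libraries, as at 38.9% of all sites. The median difference over the members was -0.0107, against -0.0197 over all sites and -0.0221 over the 28 other guided 28S sites, of which 22 were lower. Cells and heads never share a library set, so source and library set cannot be told apart.

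Am2724 stood out. It scored 0.894, 0.893, 0.923 and 0.938 in LacZ cells, against 0.980, 0.988 and 0.998 as the lowest, median and highest of the head controls. It was the lowest member in LacZ cells but not in any head group, and the difference was -0.0766 (95% interval -0.0912 to -0.0620; limma, adjusted p = 4.35e-07). Am2183 scored 0.950, 0.953, 0.945 and 0.966 in LacZ cells, against 0.996, 0.997 and 0.998 in the heads. It was the highest member in all 7 head groups and the eighth of 11 in LacZ cells, with a difference of -0.0433 (-0.0495 to -0.0371; limma, adjusted p = 2.13e-08). Gm2774 scored 0.950, 0.942, 0.945 and 0.949 in LacZ cells, against 0.977, 0.983 and 0.987 in the heads. Its 4 LacZ libraries lay close together below every head library, with a difference of -0.0365 (-0.0408 to -0.0322; limma, adjusted p = 3.13e-09).

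Gm2666 scored 0.968, 0.972, 0.911 and 0.979 in LacZ cells, against 0.976, 0.985 and 0.996 in the heads, a difference of -0.0292 (-0.0498 to -0.00862; limma, adjusted p = 0.0145). A single library made much of it: without LacZ replicate 3 the difference was -0.0137 (adjusted p = 0.00440). Cm2716 scored 0.942, 0.950, 0.945 and 0.951 in LacZ cells, against 0.945, 0.972 and 0.977 in the heads, and its difference was -0.0230 (-0.0314 to -0.0146; limma, adjusted p = 0.000171). With another deposited score the direction at Cm2716 was reversed, at 0.299, and it passed (limma, adjusted p = 0.0228). Um[Psi]2692 scored 0.956, 0.961, 0.966 and 0.972 in LacZ cells, against 0.959, 0.977 and 0.985 in the heads. Its ranges overlapped, and the difference of -0.0107 (limma, adjusted p = 0.0190) no longer passed without LacZ replicate 1 (adjusted p = 0.0766) or 2 (0.0574). Am2598 scored 0.979, 0.979, 0.975 and 0.982 in LacZ cells, against 0.976, 0.987 and 0.992 in the heads, a small difference of -0.00813 (limma, adjusted p = 0.00721).

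The other 4 members did not pass. Am2634 scored 0.989, 0.987, 0.978 and 0.987 in LacZ cells, against 0.982, 0.990 and 0.995 in the heads, a difference of -0.00401 (-0.00868 to 0.000655; limma, adjusted p = 0.110). Um2204 scored 0.986, 0.990, 0.973 and 0.989 in LacZ cells, against 0.984, 0.989 and 0.994 in the heads, a difference of -0.00474 (-0.0108 to 0.00136). Am2659 scored 0.995, 0.990, 0.984 and 0.971 in LacZ cells, against 0.982, 0.991 and 0.994 in the heads, a difference of -0.00486 (-0.0125 to 0.00275). At each of these sites the cell libraries lay across the head range. Am2704 scored 0.991, 0.980, 0.969 and 0.982 in LacZ cells, against 0.971, 0.986 and 0.991 in the heads. Its ranges overlapped too; the difference was -0.00489 (limma, adjusted p = 0.197), and without LacZ replicate 1 it was -0.00824 (adjusted p = 0.0353).

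Read ends gave 9 lower members in place of 7, that is, 9 with more ends in LacZ cells. The count over all sites with read ends is not reported here. The largest folds lay at the same 3 members. The log2 fold of ends per 1000 reads, LacZ cells over head controls, was 3.83 at Am2183, 3.04 at Am2724 and 1.72 at Gm2774 (limma, largest adjusted p of the 3 7.12e-07). Am2183 had 2.37 to 4.25 ends per 1000 reads in LacZ cells and 0.148 to 0.279 in the head controls. Am2724 had 5.27 to 10.2 in LacZ cells and 0.155 to 1.83 in the head controls. With library set as a random block 4 members passed (these 3 and Cm2716), and 41 sites did in all. Centred on the sites of unknown guide only these 3 members passed, and 22 sites in all. Centred on the median of all sites, which was 0.0280 lower in LacZ cells, Am2183, Am2724 and Gm2774 stayed lower and 7 of the other 8 had positive differences, all but Gm2666.

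**Figure D3:**
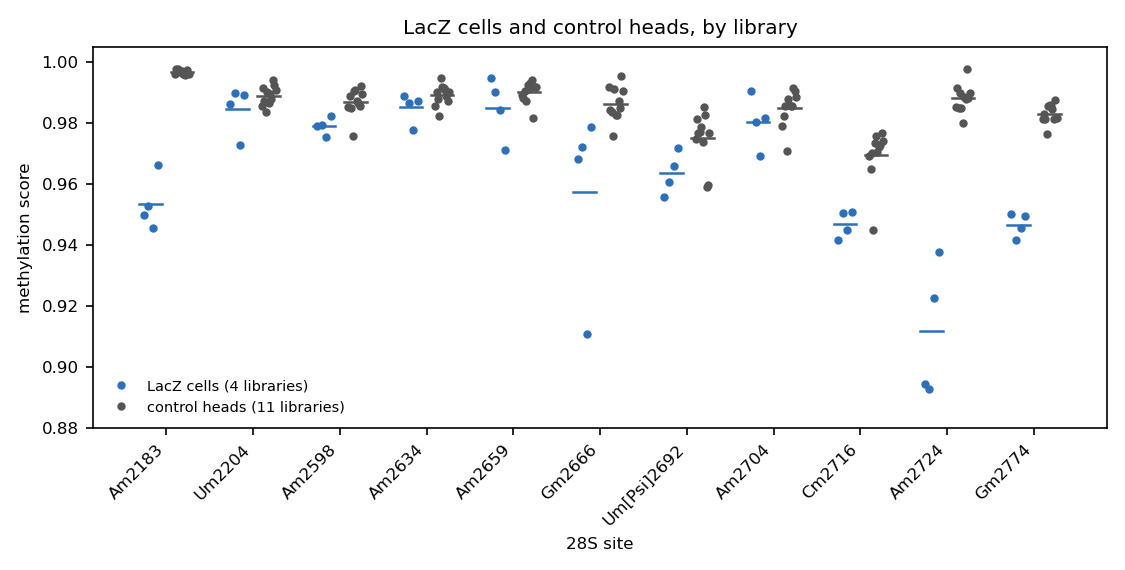
Methylation score (y axis) at the 11 sites, with the 4 LacZ libraries in blue left of the 11 control head libraries in grey and a bar at the mean over libraries. Only at Am2183, Am2724 and Gm2774 do the blue and grey points not overlap.

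Within heads all 11 members were near the top of the scale. Every member averaged at least 0.95 in each of the 7 head groups, against 22 to 26 of the 28 other guided 28S sites. Am2183 had the highest mean in all 7, from 0.996 at 18 °C to 0.997 in paraquat heads. In 5 of them its libraries did not overlap those of the site next in mean. Sites further down could still overlap it, as did Am2659 in paraquat heads (up to 0.9998) and Am2724 in sucrose heads (up to 0.9979). Cm2716 and Um[Psi]2692 were the 2 lowest members in all 7. Over head groups Cm2716 averaged between 0.954 on low-nutrient food and 0.975 on sucrose, and Um[Psi]2692 between 0.955 on low-nutrient food and 0.980 at 25 °C. Without low-nutrient replicate 4 the low-nutrient means were 0.967 at Cm2716 and 0.973 at Um[Psi]2692, and the lowest groups were 1x food for Cm2716, at 0.962, and sucrose for Um[Psi]2692, at 0.965. The sites in between followed no firm order, since neighbours overlapped in every head group except at the ends of the order.

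Paraquat, a redox-cycling herbicide used to raise oxidative stress, was tested against sucrose alone. None of the 11 members passed, and 0% of the 72 sites did (limma), with 0 members and 8 sites at an unadjusted p under 0.05. Am2704 had the smallest p, with scores of 0.988, 0.987 and 0.987 in paraquat heads and 0.991, 0.991 and 0.989 in sucrose heads. The groups just failed to overlap there, at a difference of -0.00276 (limma, adjusted p = 0.741), as they did at 15.3% of all sites. Gm2774 came next, with 0.986, 0.988 and 0.987 in paraquat heads and 0.981, 0.987 and 0.982 in sucrose heads, which overlapped. Differences ran from -0.00530 at Am2724 to 0.00365 at Gm2774, and all 11 intervals lay within 0.02 of 0, with the widest bound of 0.0173 at Am2659.

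Temperature gave the same picture at these sites. Between 29 and 18 °C, 0 of 11 members passed while 20.8% of all sites did, and 8 of the 28 other guided 28S sites were higher at 29 °C. The median difference was -0.000751 over members and 0.00262 over all sites. Am2634 had the smallest p, with 0.988, 0.989, 0.996 and 0.992 at 18 °C, 0.995, 0.992, 0.992 and 0.991 at 25 °C and 0.992, 0.988, 0.988 and 0.984 at 29 °C. The 29 and 18 °C libraries overlapped, and the difference was -0.00340 (limma, adjusted p = 0.382). Am2598, the second, scored 0.985, 0.987, 0.994 and 0.987 at 18 °C and 0.989, 0.988, 0.982 and 0.983 at 29 °C, a difference of -0.00288. At both sites 18 °C replicate 3 was the high library. With 1 library left out at a time, the differences lay between -0.00485 and -0.00173 at Am2634 and between -0.00401 and -0.000939 at Am2598. Over the 11 members the differences lay between -0.00523 at Cm2716 and 0.00313 at Gm2666, all with intervals within 0.02 of 0, and the libraries overlapped at all 11 (18.1% of all sites did not overlap).

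Against 25 °C, 0 members passed at 18 °C (1.39% of all sites) and 0 at 29 °C (6.94% of all sites). At 29 °C the smallest p belonged to Am2634, at -0.00421, and Am2704, at -0.00345 (limma, adjusted p = 0.289 for both). Am2704 scored 0.988, 0.986, 0.986 and 0.986 at 25 °C and 0.987, 0.986, 0.980 and 0.978 at 29 °C, where replicates 3 and 4 were low. Cm2716 had the largest difference, -0.00802, with 0.974, 0.976, 0.970 and 0.972 at 25 °C and 0.976, 0.972, 0.950 and 0.962 at 29 °C. The same replicates 3 and 4 were the low ones, and the groups overlapped. At Am2659 alone the libraries did not overlap, with 0.991 to 0.994 at 25 °C and 0.987 to 0.990 at 29 °C, as at 23.6% of all sites.

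At 18 °C the smallest p was at Gm2666, with 0.985, 0.983, 0.974 and 0.979 at 18 °C and 0.991, 0.983, 0.983 and 0.987 at 25 °C. That difference was -0.00564 (-0.0117 to 0.000405; limma, adjusted p = 0.357). Gm2774 scored 0.983, 0.983, 0.988 and 0.979 at 18 °C and 0.985, 0.986, 0.986 and 0.984 at 25 °C, a difference of -0.00211. At 18 and 25 °C the libraries overlapped at all 11 members (5.56% of all sites did not overlap). In all 3 temperature comparisons 0 members had an unadjusted p under 0.05, and the intervals of all 11 members lay within 0.02 of 0. Centring on the median of all sites, which was 0.00570 higher at 29 than at 18 °C, called 7 members lower between these temperatures and 4 lower between 29 and 25 °C, so here the result depended on the scale against which the members were read.

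**Figure D4:**
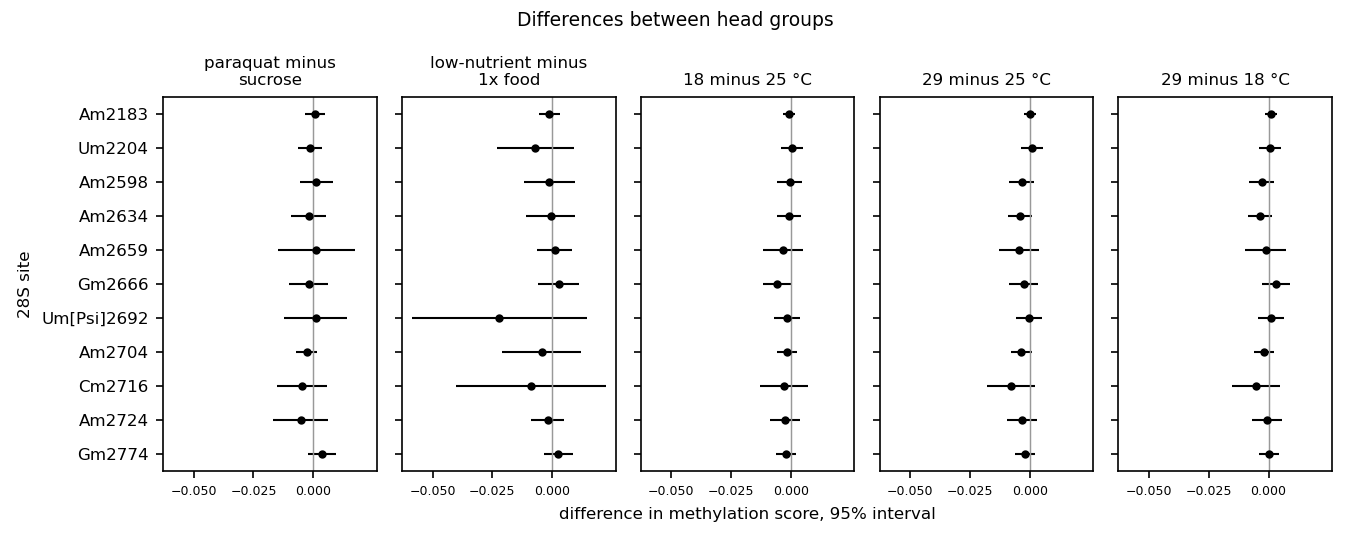
Difference in methylation score (x axis, points) with its 95% interval (bars) at the 11 sites, for paraquat minus sucrose, low-nutrient minus 1x food and the 3 temperature comparisons. Every interval crosses 0, and the widest, at Um[Psi]2692 and Cm2716, belong to the nutrition comparison.

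Low-nutrient food was compared with 1x food. Again 0 of 11 members passed, against 4.17% of all sites, and 0 members had an unadjusted p under 0.05. The libraries overlapped at all 11, while at 13.9% of all sites they did not. Um[Psi]2692 had the smallest p, with 0.974, 0.969, 0.977 and 0.902 on low-nutrient food and 0.975, 0.981, 0.977 and 0.977 on 1x food. A single library, low-nutrient replicate 4, was low, and the difference was -0.0221 (-0.0587 to 0.0146; limma, adjusted p = 0.658). Without that library it was -0.00435 (adjusted p = 0.385). Gm2774 had the next smallest p, with 0.985, 0.985, 0.985 and 0.979 on low-nutrient food and 0.981, 0.983, 0.981 and 0.977 on 1x food. Its groups overlapped, and the difference was 0.00262 with replicate 4 and 0.00413 without it. Intervals lay within 0.02 of 0 at 7 of 11 members, fewer than in the other head comparisons.

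Low-nutrient replicate 4 was the lowest library of its group at 9 of 11 members and at 51 of 72 sites. At Cm2716 it scored 0.913, against 0.959 to 0.975 in the other low-nutrient libraries, and at Um2204 0.958 against 0.986 to 0.990. The difference in ends lay on the 3′ side. Um[Psi]2692 had 562 3′ ends at a coverage of 77382 in this library, and 145 to 202 at a coverage of 82954 to 100728 in the other 3. Um2204 had 302, against 67 to 113. In 3′ ends per 1000 reads this library was the highest of its group at 9 of 11 members and 53 of 72 sites, and in 5′ ends at 2 of 11 members and 16 of 72 sites. Summed over the 72 sites, 66.7% of its ends were 3′ ends (95% Wilson interval 66.1 to 67.3, counting error only), against 51.7 to 53.8% in the other low-nutrient libraries. Without it, Cm2716 differed by 0.00483 and Um2204 by 0.000503, and 0 members passed. What set this library apart was not tested.

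**Figure D5:**
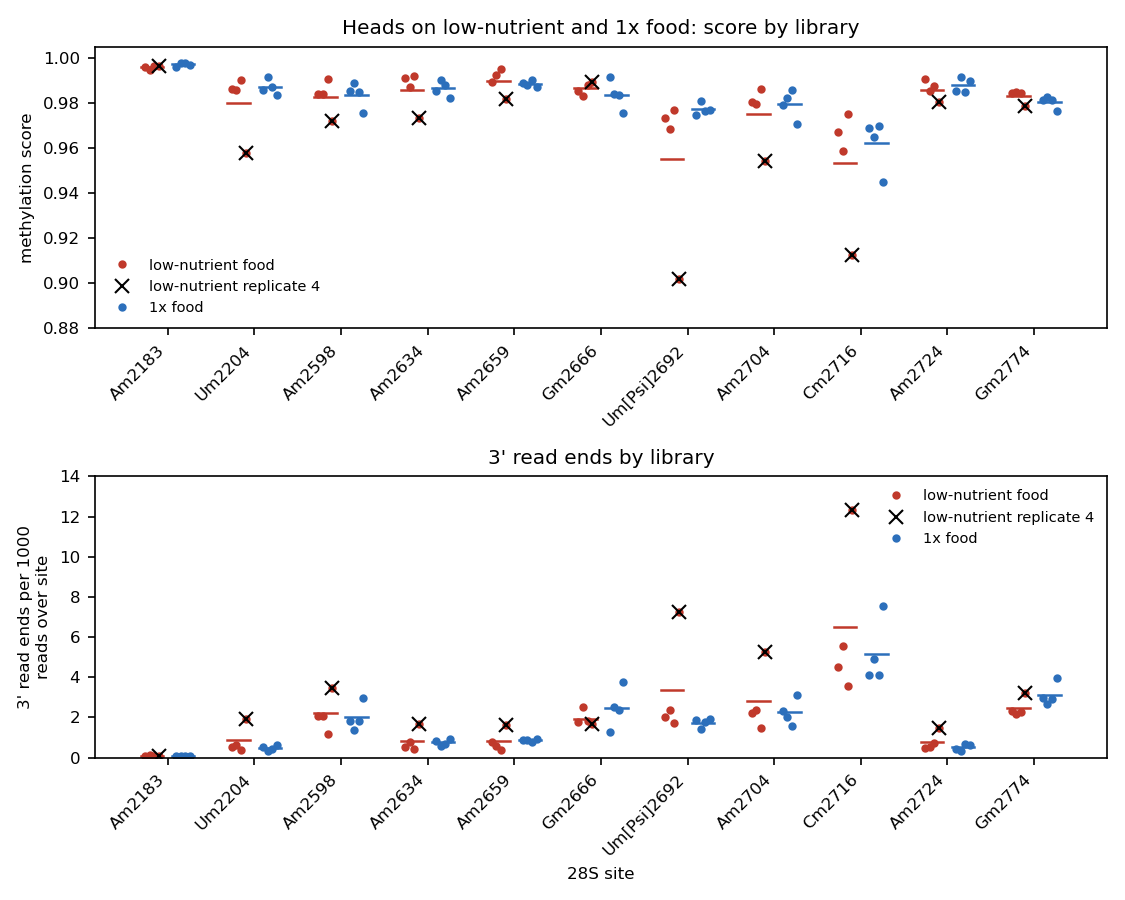
Methylation score (upper panel) and 3′ read ends per 1000 reads over the site (lower panel) at the 11 sites, with low-nutrient libraries in red left of 1x food libraries in blue, bars at the means and low-nutrient replicate 4 crossed. The crossed library has the lowest score, 0.902, and high 3′ ends at Um[Psi]2692, while the other 3 red points lie among the blue ones or near them.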

How the data were processed

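Each of the 34 libraries had a deposited table of 72 rRNA sites. Per the submitters' processing notes, Trimmomatic 0.39, Bowtie2 and the build dm6 were used; the sources used here do not state how the score was computed. The authors deposited 3 scores per site; the level score was used as it stands and the other 2 as alternatives. The coverage signal, as deposited, counts reads spanning a site, and the deposited 5′ and 3′ end signals are whole numbers with a placeholder for none, read here as 0 (34 of 374 5′ and 4 of 374 3′ member values). Columns of other samples numbered 0.

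Groups came from the labels. Scores were fitted with limma 3.58.1 in R 4.3.3 over all 72 sites, with Benjamini-Hochberg adjustment over them and a two-sided threshold of 0.05; scripts were tested on simulated data. The 3 temperatures shared a fit, and the head controls were weighted equally against LacZ cells. For the test of read ends, 1 was added to the number of ends before it was divided by coverage, and log2 of the ends per 1000 reads was fitted. Figures and tables used Python 3.11.15. Fib and LacZ libraries of the same number deviated together (r from 0.165 to 0.574 over sites). They also share a library set, and libraries of unlike number were not correlated, so whether the numbers pair was not tested. In the head experiments r had no constant sign (-0.377 to 0.344). Alternatives are given in the closing section. All 11 sites are named; library values are given in the cell comparisons for up to 8 of the largest differences that passed and the 3 smallest of all, with Am2704 added in LacZ cells against heads, and, in stress comparisons without calls, for the 2 smallest p. Other sites named in the head comparisons were chosen after their values were seen. The members, the lists and the tests were chosen with earlier results of these data known.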

Additional observations from a re-analysis of the deposited data

Results flagged for a closer look

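In 7 of 77 tests of a site within a group of 4 libraries, 1 library lay far from the other 3 by Dixon's ratio; chance gives about 1 in 20. Of these, 3 came from low-nutrient replicate 4, with scores of 0.902 at Um[Psi]2692 (the other libraries 0.969 to 0.977), 0.958 at Um2204 (0.986 to 0.990) and 0.979 at Gm2774 (0.985 in the others). LacZ replicate 3 scored 0.911 at Gm2666, against 0.968 to 0.979, at a coverage of 5799. At 18 °C, replicate 3 scored 0.994 at Am2598, against 0.985 to 0.987, and replicate 1 scored 0.977 at Um[Psi]2692, against 0.979 to 0.980. At 25 °C, replicate 1 scored 0.988 at Am2704, against 0.986 in the others. The last 3 lie within 0.01 of the other libraries of their group.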

How the results depend on the processing

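Each comparison was refitted under 15 to 28 settings. The count of members called in the knockdown was 11 under every setting except where scores were centred. Centring on all sites gave 8 (5 higher and 3 lower, with 25 sites lower and 30 higher in all). Centring on sites of unknown guide gave 10, with the count over all sites not reported here. The cause of these changes was not tested. Centred on all sites, Fib minus LacZ turned to 0.0713 at Um2204, 0.0642 at Am2634, 0.0103 at Am2659, 0.0431 at Gm2666, 0.0800 at Um[Psi]2692, 0.0809 at Am2704, 0.0901 at Cm2716 and 0.0331 at Am2724. In the same setting LacZ minus heads turned to 0.0233 at Um2204, 0.0199 at Am2598, 0.0240 at Am2634, 0.0232 at Am2659, 0.0173 at Um[Psi]2692, 0.0232 at Am2704 and 0.00503 at Cm2716. In all, 19 sites were lower and 36 higher there. With another deposited score Cm2716 turned to 0.299 and passed in that direction (limma, adjusted p = 0.0228). Between 29 and 18 °C, centring on all sites called 7 members, all lower (21 sites lower and 9 higher in all), including Am2183 at -0.00472, Um2204 at -0.00508 and Gm2774 at -0.00543, and between 29 and 25 °C it called 4 (7 sites lower and 5 higher). For LacZ cells against heads, 3 members were called when centred on sites of unknown guide (22 sites in all, against 52). With library set as a random block 4 were called (41 sites in all). Single head groups gave 5 to 8 members, with the counts over all sites not reported here. Leaving out 1 library gave 11 members in the knockdown, 6 to 7 for LacZ cells against heads and 0 in each stress comparison. All-site counts then ran from 1 to 10 between 18 and 25 °C, 7 to 23 between 29 and 18 °C, 2 to 10 between 29 and 25 °C, 1 to 6 for nutrition and 0 to 1 for paraquat. On the log2 odds scale 0 sites were called for nutrition, 0 between 18 and 25 °C and 1 for paraquat, and with another deposited score 3 between 18 and 25 °C, 2 between 29 and 25 °C and 1 for nutrition. The remaining deposited score gave 3 sites between 29 and 25 °C, centring on sites of unknown guide gave 2 there, and read ends gave 1 site for nutrition. With the replicate block, 11 members (60 sites) were called in the knockdown and 7 for LacZ cells against heads. It called 0 members in every stress comparison, where libraries of the same number did not deviate together. Between 29 and 25 °C the block called 2 sites in place of 5. An exact permutation test per site called 11 members in the knockdown and 7 for LacZ cells against heads. The counts over all sites are not reported here. In the stress comparisons it called 0, and its lowest p there is 0.0286 for 4 against 4 libraries and 0.10 for 3 against 3. No site could pass at 0.10. A p of 0.0286 needs groups that do not overlap, found at 5.56 to 23.6% of all sites. To pass after adjustment, most of the 72 sites would have had to reach it, so these 0 calls say nothing about the members. Near a score of 1 few ends remain, and coverage went down to 4758 reads at Gm2666 and 6523 at Am2659, both in sucrose heads.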
